A study of Mus musculus with 8 samples.

Results

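Of the 16119 genes in the count table, 10 encode the transcription factors considered here: Cebpa, Cebpb, Cebpe, Spi1, Gfi1, Runx1, Gata2, Myb, Hoxa9 and Myc. They were chosen by symbol, with no measured value in the rule, and all 10 were in the table and passed the filter on low counts. RNA-seq was performed on common dendritic cell (DC) progenitors (CDPs) from the bone marrow (BM) of C57BL/6 mice (C57BL/6J according to the methods), in 4 libraries from mice on a high fat diet (HFD) and 4 from chow-fed (CF) controls. HFD mice carried the label DIO (diet-induced obese), had been fed for 16 weeks and received 60 kcal% fat. CF mice carried the label DIO-Control, were described as matched in age and diet, and received 10 kcal% fat. All animals were males bought from a vendor according to the methods, and the labels name no transgene or engineered allele in either group. About 50000 cells per replicate were sorted as lineage-negative cells with intermediate c-kit, low Sca1, CD115 and Flt3. The labels do not say whether a replicate was 1 mouse or a pool, so each p-value below measures the spread between these libraries only. The comparison asks whether the factors that set the fate of myeloid progenitors differed with diet in a progenitor that is committed to the DC lineage.

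In the BM, stem cells and early progenitors express RUNX1, MYB, HOXA9 and GATA2, which keep them immature and open several lineages. PU.1, encoded by Spi1, and C/EBPα then direct cells to the myeloid branch, where the balance of the pair weighs on monocyte and DC against granulocyte fate. GFI1, C/EBPε and C/EBPβ act in the granulocyte branch and in inflammation-driven myelopoiesis, GATA2 also in mast cells, and MYC drives growth and division. A CDP has passed the granulocyte branch, and its DC fate rests on PU.1 and IRF8.

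No factor gene differed between diets past the test: 0 of 10 had an adjusted p below 0.05 in edgeR's quasi-likelihood test, where 67 of 15837 genes tested did (0.423%, all of them lower in HFD). DESeq2 also gave 0, with Cebpe left without a p-value, where it called 3.58% of all genes (503 lower and 64 higher), and limma voom gave 0 where it called 0.442%. At an unadjusted p below 0.05 there was 1 factor gene, Myc, against 8.56% of all genes tested. In 0 of 10 did the diets lie apart without overlap, against 6.16% of all genes tested. The log2 fold change was above 0 in 6 genes and below 0 in 4, with a median of 0.04, beside 0.05 over all genes tested. The factors differed from library to library, with the widest spread in HFD, which rested in part on HFD replicate 1. The ratio of the highest to the lowest library was 19.8 for Cebpe, 11.7 for Gata2, 8.37 for Cebpb, 5.78 for Hoxa9 and 5.36 for Gfi1. For the other 5 genes it was 1.37 (Runx1) to 2.31 (Cebpa). Because each library is RNA of a pool of sorted cells, fewer cells of a type and less RNA per cell cannot be told apart.

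Some properties of the libraries touch these results. Total counts were 28203651 to 48409689 per library. Across genes, HFD replicate 1 correlated with the other HFD libraries at r = 0.88 to 0.93 on the log2 CPM scale, and all other pairs of the same diet at 0.95 to 0.97. Genes are not independent replicates, and these r values are descriptions. Short non-coding genes took 8.495% to 13.6% of counts in HFD and 21.7% to 33.9% in CF, without overlap. Of the genes sorted on, Kit was at 34.2 to 53.6 CPM and Csf1r (CD115) at 79.4 to 132.9 CPM over all libraries. Flt3 was at 88.8 CPM in HFD replicate 1 and at 227.5 to 378.0 CPM in the other 7 libraries. CPM here is the count scaled to library size, with the size corrected by the trimmed mean of M values (TMM).

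Promoter sequence is shown for 4 genes whose levels varied together or in opposite directions over the libraries, to set the factors' own binding letters beside that pattern. The windows hold the 250 bases before a RefSeq start site on GRCm38.p6, written 5′ to 3′ on the gene's strand. Capitals mark letters of a searched motif on either strand. In all, 7 motifs were searched in 32851 such windows. The C/EBP letters TTGCNNAA were present in 9.56% of all windows and the PU.1 letters GAGGAA in 23.3%. For RUNX, TGTGGT was present in 14.0%, and the letters AGATAA bound by GATA factors were present in 9.99%. The MYB letters TAACNG were present in 19.8% and the letters TGATTTAT of HOXA9 with PBX in 0.837%. The MYC E-box, CACGTG, was present in 6.02%. The Cebpb window is chr2:167688665-167688914 on the plus strand, the Gfi1 window chr5:107725806-107726055 on the minus strand, the Gata2 window chr6:88193641-88193890 on the plus strand and the Hoxa9 window chr6:52227371-52227620 on the minus strand. The RefSeq start is that of the GENCODE gene for Cebpb and Gata2, and lies 231 bases downstream of it for Gfi1 and 3719 bases for Hoxa9.
Cebpb: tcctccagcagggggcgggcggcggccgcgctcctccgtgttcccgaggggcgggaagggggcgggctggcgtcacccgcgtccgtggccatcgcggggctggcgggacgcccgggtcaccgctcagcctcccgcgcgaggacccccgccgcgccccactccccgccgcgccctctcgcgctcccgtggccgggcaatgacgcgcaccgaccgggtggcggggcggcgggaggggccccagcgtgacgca
Gfi1: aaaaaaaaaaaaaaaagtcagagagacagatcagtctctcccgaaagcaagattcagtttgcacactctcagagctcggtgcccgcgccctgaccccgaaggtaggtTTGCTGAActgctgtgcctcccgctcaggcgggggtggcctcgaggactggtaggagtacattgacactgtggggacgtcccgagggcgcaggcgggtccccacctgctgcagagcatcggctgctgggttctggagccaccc
Gata2: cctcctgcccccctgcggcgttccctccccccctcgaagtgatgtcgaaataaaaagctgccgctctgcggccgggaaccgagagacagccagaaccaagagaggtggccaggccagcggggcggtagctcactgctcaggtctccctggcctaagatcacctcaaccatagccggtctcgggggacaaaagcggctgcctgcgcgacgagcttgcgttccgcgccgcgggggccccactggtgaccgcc
Hoxa9: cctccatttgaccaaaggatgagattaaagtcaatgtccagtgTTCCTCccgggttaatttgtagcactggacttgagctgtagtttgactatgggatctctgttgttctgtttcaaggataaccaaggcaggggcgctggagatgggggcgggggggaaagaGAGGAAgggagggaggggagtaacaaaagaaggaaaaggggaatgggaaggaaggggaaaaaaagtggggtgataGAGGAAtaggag
The Gfi1 window held 1 match to the C/EBP letters and the Hoxa9 window 3 matches to the PU.1 letters. The Cebpb and Gata2 windows held none of the 7 motifs. Of 10 windows in 7 genes, matches were found in 2 others, both of Runx1: the distal one held 1 MYB and 1 MYC E-box match, and the proximal one 1 PU.1 match. A match is a description of letters and says nothing of binding. Cebpe, Spi1 and Myc had no window in the table used.

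Cebpe encodes C/EBPε, which switches on the secondary granule genes of maturing granulocytes (chr14:54710360-54712174, minus strand, GRCm38). Its level was 30.7, 4.85, 1.55 and 1.55 CPM in HFD replicates 1 to 4 and 3.72, 9.42, 8.06 and 8.08 CPM in CF replicates 1 to 4. HFD replicate 1 was thus above every other library, and HFD replicates 3 and 4 were below every CF library, so that the diets overlapped at both ends. Between diets the log2 fold change was 0.40 (SE 0.92, 95% interval -1.70 to 2.49, adjusted p = 0.96 by edgeR). Without HFD replicate 1 it was -1.48 (adjusted p = 0.20). The range of 19.8-fold was wider than that of 99.2% of 6660 protein-coding genes with a mean of 10 CPM or more, whose median range was 1.54-fold. Cebpe itself lay below that floor, with means of 9.65 CPM in HFD and 7.32 CPM in CF. The share thus sets it beside better-expressed genes, and ranges can widen at low counts.

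Cebpb encodes C/EBPβ, which takes over from C/EBPα in emergency granulopoiesis and acts in macrophages (chr2:167688915-167690418, plus strand). It stood at 50.9, 12.5, 6.09 and 11.7 CPM in HFD and at 13.5, 31.7, 40.7 and 25.7 CPM in CF. HFD replicates 2 to 4 lay below all 4 CF libraries, and HFD replicate 1 lay above all of them. In the comparison of diets the log2 fold change was -0.46 (SE 0.64, 95% interval -1.91 to 0.99, adjusted p = 0.93 by edgeR). Leaving out HFD replicate 1 gave -1.47 (adjusted p = 0.14), and leaving out CF replicate 1 as well, a choice made after seeing the data, gave -1.70 with an adjusted p of 0.023. That setting called 2.21% of all genes tested as lower in HFD, and the adjusted p of Cebpb ranged from 0.023 to 1.0 over its 20 alternatives. Exons of Cebpb share 312 nt with Tmem189 on the opposite strand, and whether counting used strand is not given in the sources used here.

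Cebpa encodes C/EBPα, required for the step from common myeloid to granulocyte-monocyte progenitors (chr7:35119293-35121928, plus strand). Its level was 20.9, 16.96, 10.6 and 13.5 CPM in HFD and 18.5, 24.4, 23.3 and 13.8 CPM in CF. HFD replicates 3 and 4 were the lowest of all 8 libraries, and HFD replicate 1 was within the CF range. The log2 fold change was -0.37 (SE 0.25, 95% interval -0.93 to 0.19, adjusted p = 0.80 by edgeR). It was below 0 in all 20 alternatives, from -0.61 to -0.15, with adjusted p from 0.28 to 1.0. Its range of 2.31-fold over the 8 libraries, from HFD replicate 3 to CF replicate 2, was narrower than that of Cebpb (8.37-fold) or Cebpe.

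Spi1 encodes PU.1, on which the myeloid and DC lineages depend (chr2:91082390-91115756, plus strand). It was at 72.3, 47.8, 37.7 and 48.4 CPM in HFD and at 40.0, 63.6, 57.8 and 47.95 CPM in CF. Both diets averaged close to one another, with 51.6 ± 14.7 CPM in HFD and 52.3 ± 10.4 CPM in CF (SD, n = 4 each). Its log2 fold change was -0.02 (95% interval -0.51 to 0.47, adjusted p = 0.99 by edgeR). With scaling by library size alone, which moved the median of all genes to 0.25, it was 0.16.

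Gfi1 encodes a zinc finger repressor that acts with C/EBP factors toward neutrophils and against the monocyte fate (chr5:107716657-107726036, minus strand). Its level was 16.8, 5.29, 5.93 and 3.13 CPM in HFD and 4.16, 7.03, 7.495 and 4.86 CPM in CF. HFD replicate 1 was more than 2 times every other library, and the other 3 HFD libraries lay from below to within the CF range. The log2 fold change of 0.40 (SE 0.48, 95% interval -0.70 to 1.51, adjusted p = 0.91 by edgeR) became -0.30 without that library.

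Gata2 encodes GATA2, a zinc finger factor of stem cells and of the mast cell and basophil branch (chr6:88193891-88207032, plus strand). Its level per kb of exons was the lowest of the 10 genes. The libraries stood at 9.08, 3.02, 1.36 and 0.777 CPM in HFD and 1.499, 3.44, 2.80 and 2.57 CPM in CF. The lowest level, in HFD replicate 4, rests on 32 counts. HFD replicate 1 again led all libraries, and HFD replicates 3 and 4 were the lowest 2. Against CF, the log2 fold change in HFD was 0.46 (SE 0.69, 95% interval -1.12 to 2.04, adjusted p = 0.93 by edgeR) and -0.59 without HFD replicate 1.

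Hoxa9 encodes a homeobox factor of stem and early progenitor cells that is shut down on maturation (chr6:52223100-52231089, minus strand). It ran the other way, at 2.44, 6.14, 12.4 and 9.71 CPM in HFD and 11.2, 10.2, 8.00 and 14.1 CPM in CF. HFD replicates 1 and 2 were the lowest of the 8 libraries, and HFD replicates 3 and 4 lay within the CF range. The log2 fold change was -0.50 (SE 0.43, 95% interval -1.48 to 0.47, adjusted p = 0.84 by edgeR), and it was below 0 in all 20 alternatives, from -0.83 to -0.19.

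Runx1 encodes the DNA-binding subunit of core binding factor, needed for blood stem cells to form (chr16:92601466-92826149, minus strand). Its level was 111.8, 153.1, 131.7 and 127.1 CPM in HFD and 128.7, 119.6, 122.8 and 136.2 CPM in CF. Runx1 had a log2 fold change of 0.05 (95% interval -0.22 to 0.31, adjusted p = 0.97 by edgeR), the narrowest interval of the 10. Only 27.4% of the 6660 protein-coding genes had a smaller range over the libraries.

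Myb encodes c-MYB, which sustains dividing progenitors (chr10:21124935-21160984, minus strand). Its level per kb of exons was the highest of the 10 genes. The libraries stood at 166.5, 192.8, 295.1 and 223.9 CPM in HFD and 240.6, 204.4, 193.9 and 220.9 CPM in CF. HFD replicate 1 was the lowest library and HFD replicate 3 the highest. Its log2 fold change was 0.03 (95% interval -0.38 to 0.44, adjusted p = 0.99 by edgeR). Antisense genes in the table share 559 nt of exons with Myb and 106 nt with Runx1.

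Myc encodes c-MYC, a driver of ribosome production, metabolism and cell division (chr15:61985391-61990374, plus strand). It was at 35.0, 38.7, 51.0 and 52.6 CPM in HFD and at 37.6, 27.4, 36.8 and 33.2 CPM in CF. HFD replicates 2 to 4 were above all CF libraries, while HFD replicate 1 lay within their range. The means were 44.3 ± 8.81 CPM in HFD and 33.8 ± 4.63 CPM in CF (SD, n = 4 each). Myc had a log2 fold change of 0.39 (SE 0.16, 95% interval 0.02 to 0.77), with an unadjusted p of 0.041 and an adjusted p of 0.54 by edgeR. An exact two-sided permutation test, over the 70 ways to draw 4 of 8 libraries, gave p = 0.11, where 0.029 is the smallest p that 4 against 4 allows. It was above 0 in all 20 alternatives, from 0.26 to 0.59, with adjusted p from 0.13 to 1.0.

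**Figure D1:**
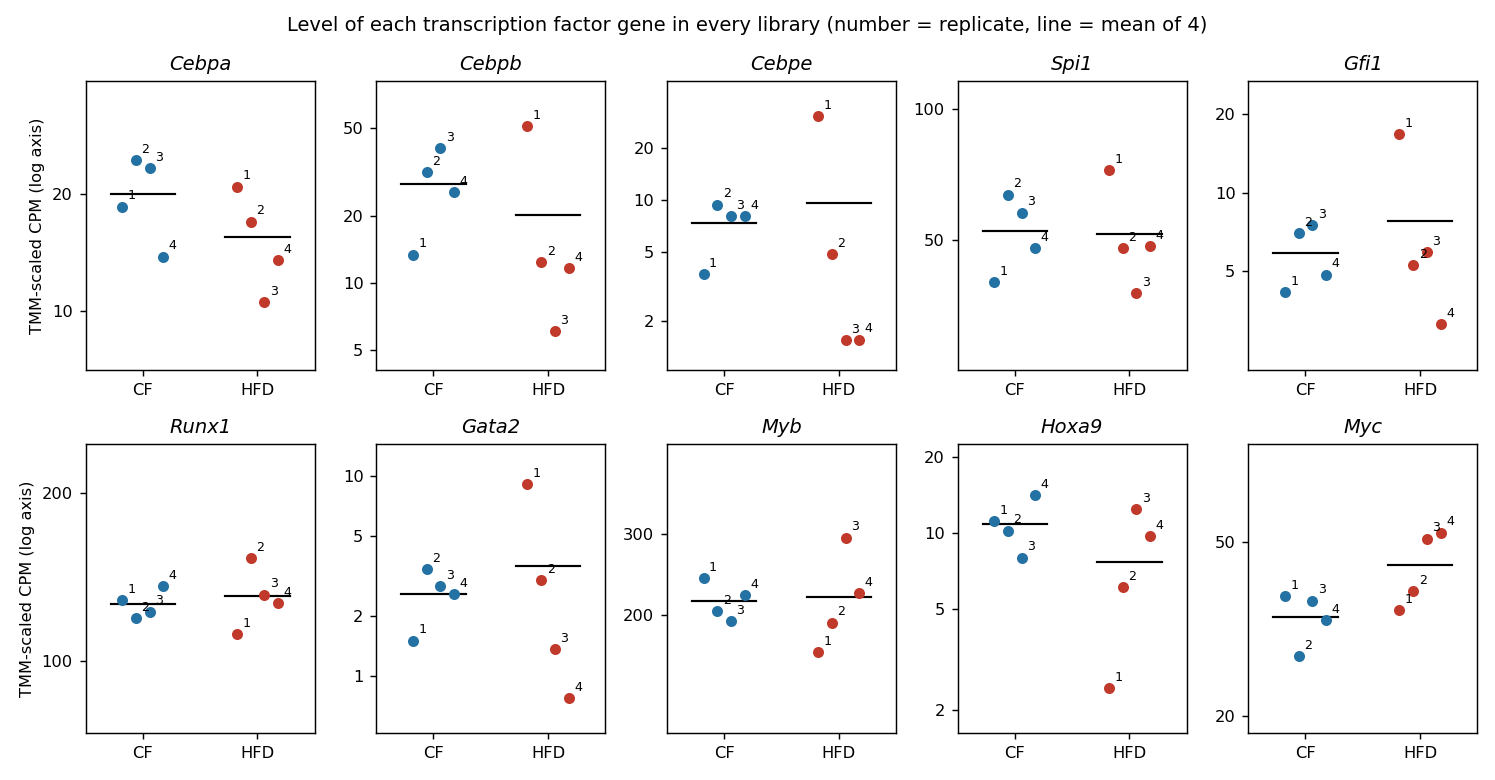
Level of each of the 10 factor genes in every library, as TMM-scaled CPM on a log axis, with CF in blue and HFD in red. Numbers give the replicate and lines the mean of 4. HFD replicate 1 is the highest point for Cebpb, Cebpe, Spi1, Gfi1 and Gata2 and the lowest for Runx1, Myb and Hoxa9.

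**Figure D2:**
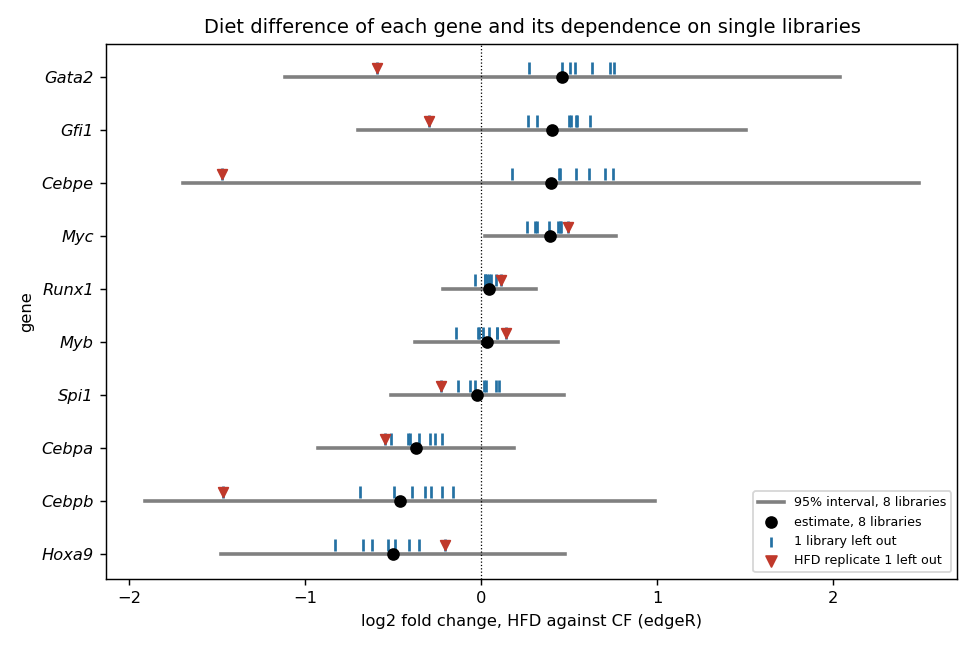
Log2 fold change of each gene, HFD against CF, with its 95% interval from all 8 libraries (black points, grey bars). Blue ticks leave out 1 library each and red triangles mark HFD replicate 1 left out. The interval of Myc alone lies above 0, and the triangles of Cebpe, Gata2 and Gfi1 lie on the other side of 0 from their estimates.

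Several factor genes had their highest or lowest level in the same library. HFD replicate 1 was the highest or lowest library in 8 of 10 factor genes, against 53.4% of the 6660 protein-coding genes. It was highest for Cebpb, Cebpe, Spi1, Gfi1 and Gata2 and lowest for Runx1, Myb and Hoxa9. Cebpe, Gfi1, Gata2 and Hoxa9 averaged under 10 CPM and are not among the 6660 genes. The shares given here thus set them beside better-expressed genes. HFD replicate 3 was lowest for Cebpa, Cebpb, Cebpe and Spi1. The fold range was wider in HFD than in CF in 10 of 10 factor genes, against 74.2% of the protein-coding genes. Without HFD replicate 1 it was wider in 6 of 10, against 49.8% of the protein-coding genes, and narrower in Cebpa, Cebpb, Spi1 and Myc. Without HFD replicate 1, 7 of 10 genes had a log2 fold change below 0, and 4 (Cebpa, Cebpb, Cebpe, Myc) reached an unadjusted p below 0.05, where 14.6% of all genes tested did. Of those 4, Myc was higher in HFD and the C/EBP genes were lower, and 0 of 10 passed after adjustment, against 1.26% of all genes tested.

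Marker genes of other cells also varied between these libraries, in some lists across all members and in others through a few. The summed CPM of 15 neutrophil genes was 21240 in HFD replicate 1, 3712, 1337 and 1008 in the other HFD libraries, and 2044 to 6788 in CF. All 15 were highest in HFD replicate 1 and lowest in HFD replicate 3 or 4, and none was at 0. The sum of 9 granulocyte progenitor genes was 507 to 1735 CPM in HFD and 605 to 1113 CPM in CF, with 8 of 9 highest in HFD replicate 1. Mast cell and basophil genes (7) summed to 170.5 CPM in that library, 14.2 to 73.7 CPM in the other HFD libraries and 38.0 to 107.2 CPM in CF. Of those 7, 5 were highest in HFD replicate 1, and without Hdc the sum there was 66.3 CPM, against 10.5 to 62.4 CPM in the other 7 libraries. For the 10 erythroid genes the sum was 653 CPM there and 102.0 to 164 CPM in the other 7 libraries, and all 10 were highest there. Monocyte and macrophage genes summed to 2243 CPM in HFD replicate 1 and 361 to 1242 CPM elsewhere, of which Lyz2 alone was 1709 CPM there. Only 5 of those 10 genes were highest in HFD replicate 1, and without Lyz2 its sum of 534 CPM lay within the 246 to 629 CPM of the other libraries. B cell genes summed to 1306 CPM there and 319 to 658 CPM elsewhere, with 5 of 9 highest in HFD replicate 1. Without Ighm their sum was 578 CPM there and 49.0 to 173.6 CPM elsewhere. Igkc, another immunoglobulin gene, averaged 166.6 CPM in HFD (SD 206.2) and was among those highest in HFD replicate 1.

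S100a9, the neutrophil marker of highest mean over the libraries, was at 5110 CPM in HFD replicate 1, 283 to 940 CPM in the other HFD libraries and 496 to 1915 CPM in CF. The leading genes of the other lists in HFD replicate 1 were Mpo at 717 CPM, Hdc at 104 CPM, Car2 at 186 CPM, Lyz2 at 1709 CPM and Ighm at 728 CPM. The conventional DC sum, led by Cd74, was 331 to 622 CPM in HFD and 682 to 1158 CPM in CF. That gap came from the MHC class II genes Cd74, H2-Aa and H2-Ab1, without which the sum of the other 8 was 171 to 272 CPM in HFD and 207 to 227 CPM in CF. Plasmacytoid DC genes, led by Runx2, summed to 360 CPM in HFD replicate 1, 622 to 825 CPM in the other HFD libraries and 460.0 to 522.5 CPM in CF. Without Runx2 and Tcf4, which had log2 fold changes of 0.26 and 0.04, the sum was 108 CPM in HFD replicate 1, 224 to 360 CPM in the other HFD libraries and 93.1 to 135 CPM in CF. All 9 of these genes had a log2 fold change above 0 and 5 an unadjusted p below 0.05 (Siglech 1.47, Ccr9 1.56, Ly6d 1.22, Spib 1.40, Bst2 0.75), beside 3.22% of all genes tested, with 0 called. Of the B cell genes 9 of 9 were above 0 and 6 at an unadjusted p below 0.05, and of the erythroid genes 10 of 10 and 1. Of the conventional DC genes 8 of 11 were below 0 and 4 at an unadjusted p below 0.05, beside 5.34% of all genes tested. T and NK cell genes, led by Cd8a, and stem cell genes, led by Hlf, summed to no more than 8.63 and 12.6 CPM. The part of these cells in the factor genes' values was not tested.

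**Figure D3:**
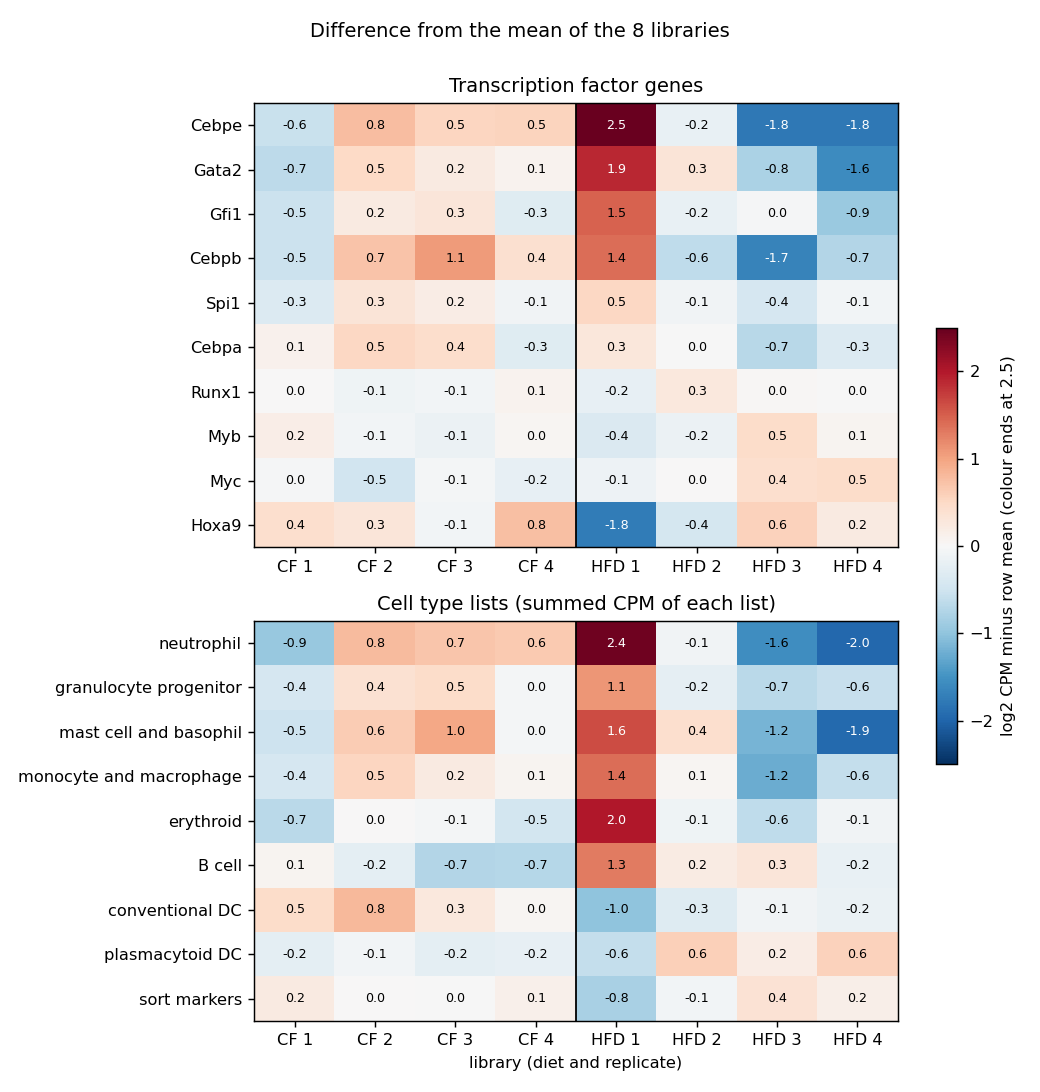
Difference of each library from the mean of all 8, as log2 CPM, for the 10 factor genes (top) and for the summed CPM of the cell type lists (bottom). Red is above the row's mean and blue below, with the colour ending at 2.5. Cebpe, Gata2, Gfi1 and Cebpb share their red in HFD replicate 1 with the neutrophil and erythroid lists. Hoxa9 and the sum of the sort markers are blue there. That sum is led by Flt3, and 1 of its 4 genes was lowest in HFD replicate 1.

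The genes most like each factor in pattern were found by the root mean square (RMS) difference of mean-centred log2 CPM over the 8 libraries. Only factors spanning more than 1 log2 unit and candidates among the 6660 protein-coding genes were considered. For Cebpe the nearest were Lyz2 (0.17), the lysozyme of phagocytes, Mcemp1 (0.17) and Camp (0.17), the cathelicidin of secondary granules. Camp was at 731.5 CPM in HFD replicate 1 and 33.3 CPM in its lowest library. The nearest to Cebpb were Fosl2 (0.27), an AP-1 subunit, Slfn2 (0.31) and Emilin2 (0.33), all highest in HFD replicate 1. For Gata2 they were Lbp (0.24), the lipopolysaccharide-binding protein, Dstn (0.28) and Irak3 (0.28). Gfi1 was nearest to Tcp11l2 (0.18), Abtb1 (0.22) and Slc28a2 (0.25).

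Hoxa9 was nearest to Cd34 (0.19), the sialomucin of early progenitors, then to Kcng1 (0.21) and Drc7 (0.24). Cd34 was at 23.4 CPM in HFD replicate 1, its lowest library, and 107.5 CPM in its highest. Cebpa was nearest to Rnf144b (0.13), March1 (0.18), an E3 ligase that removes MHC class II from the surface, and Slfn5 (0.19). Among all 10 factors the smallest RMS differences were those of Runx1 and Myb (0.23), Myb and Myc (0.25) and Cebpa and Spi1 (0.27). Runx1, Myb, Myc and Spi1 each spanned less than 1 log2 unit, and the measure is small for any genes that vary little. These small values therefore do not show a shared pattern. In HFD replicate 2, for example, Runx1 was 0.25 above its mean and Myb 0.15 below its own. Cebpe and Hoxa9 were farthest apart (1.91). All these genes come from the same 8 libraries, and the values are descriptions of pattern.

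Levels were compared between genes per kb of merged exons. Averaged over the 8 libraries the order was Myb (24.3 CPM per kb), Spi1 (19.3), Cebpb (16.0), Myc (14.4), Runx1 (10.7), Cebpe (6.84), Cebpa (6.73), Gfi1 (2.14), Hoxa9 (1.66) and Gata2 (0.569). The ranges of all 9 pairs of neighbours in that order overlapped. Myc was above Runx1 and Cebpa above Gfi1 within 8 of 8 libraries, whereas Cebpe was above Cebpa in 2 of 8, with HFD replicate 1 among them. By the longest transcript, Runx1 moved to place 3, Cebpb to 5, Hoxa9 to 8 and Gfi1 to 9. Runx1 then stood above Myc, which stayed at place 4, so the order of that pair depends on the length used.

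**Figure D4:**
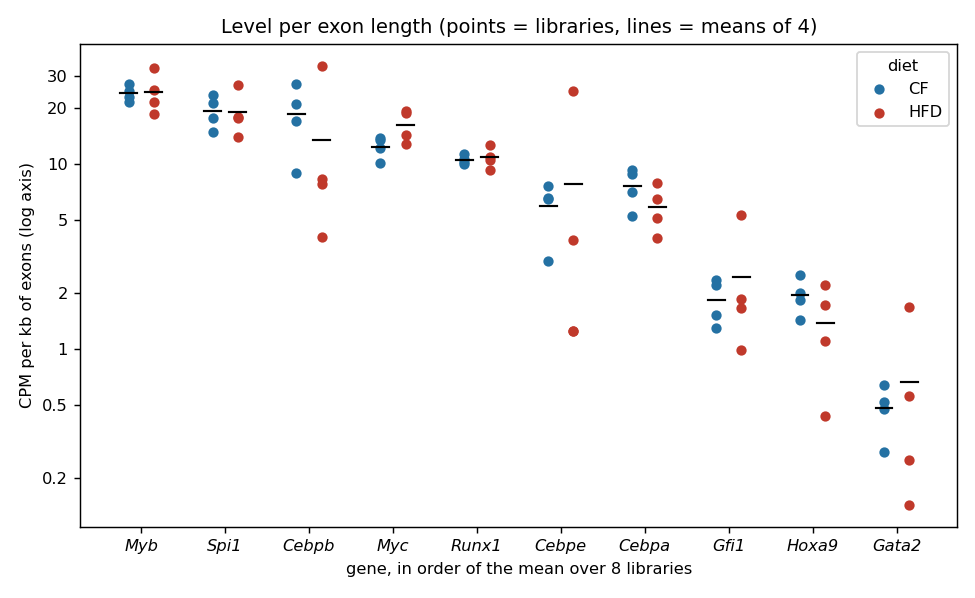
Level per exon length of the 10 factor genes in the order of their mean over 8 libraries, in CPM per kb on a log axis. Points are libraries and lines the mean of 4 per diet. Cebpe spans from 1.25 to 24.7 CPM per kb, across most of the other genes' levels.

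Ratios between factors within a library were described without a test. The log2 ratio of Spi1 to Cebpa, the pair that weighs on monocyte against granulocyte fate, was 1.79, 1.49, 1.83 and 1.84 in HFD and 1.11, 1.38, 1.31 and 1.80 in CF. Its mean was 1.74 ± 0.17 in HFD and 1.40 ± 0.29 in CF (SD, n = 4 each). CF replicates 1 to 3 lay below all HFD libraries and CF replicate 4 lay among them. Myc to Cebpa was 0.74, 1.19, 2.27 and 1.96 in HFD and 1.02, 0.17, 0.66 and 1.27 in CF, with HFD replicates 3 and 4 above all CF libraries. Spi1 to Gata2, known to antagonise each other in early progenitors, spread from 2.99 to 5.86 in HFD and from 4.19 to 4.69 in CF. Cebpa to Cebpb ran from -1.29 to 0.79 in HFD and from -0.90 to 0.46 in CF. These are ratios of CPM and carry the genes' lengths with them.

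Partners and targets of the factors were taken from 11 lists of 108 different genes, of which 101 were tested. None of the 101 had an adjusted p below 0.05 by edgeR, beside 0.423% of all genes tested. At an unadjusted p below 0.05 there was 1 higher in HFD (Spib) and 5 lower (Jun, Cbfa2t2, Mlx, Il6ra, Id2), beside 3.22% and 5.34% of all genes tested. The median log2 fold change was 0.03, with 56 genes above 0 and 45 below. Diets did not overlap for Spib and Mcm4, higher in HFD, and for Jun and Id2, lower in HFD, beside 2.58% and 3.58% of all genes tested.

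Among the 10 tested ETS and IRF partners of PU.1, Spib, a close relative of Spi1 that acts in plasmacytoid DCs and B cells, was at 27.1, 52.7, 31.2 and 60.5 CPM in HFD and 12.95, 23.2, 16.4 and 12.4 CPM in CF. Its log2 fold change was 1.40 (adjusted p = 0.11 by edgeR), and it was 1 of the 5 plasmacytoid DC markers named above. Jun, the AP-1 subunit that works with PU.1 in monocytes, was at 58.8, 29.6, 54.99 and 34.2 CPM in HFD and 82.5, 77.4, 96.8 and 79.6 CPM in CF. The difference of Jun was -0.92 on the log2 scale (adjusted p = 0.14 by edgeR). Every HFD library was above every CF library for Spib and below for Jun. Both passed the threshold without HFD replicate 1 (Spib 1.57, adjusted p = 0.038, and Jun -1.09, adjusted p = 0.048 by edgeR), where 1.26% of all genes tested did. They also passed with DESeq2 (3.58% of all genes tested) and with limma voom and sample quality weights (1.78%), and Spib passed with library size alone (0.682%). Over the alternatives the adjusted p ranged from 0.00085 to 0.69 for Spib and from 0.0059 to 0.69 for Jun. In this list the median was 0.09.

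In the C/EBP list (6 genes) the lowest p-values belonged to Trib2, a pseudokinase that promotes C/EBPα degradation, and Cebpz. Trib2 was at 3.37 CPM in HFD replicate 1 and no more than 0.850 CPM elsewhere, and Cebpz had a log2 fold change of 0.13. The GFI1 list (7 genes), which holds the LSD1 corepressor, had Gfi1b (0.93) and Hmg20b (0.11) first, and Gfi1b was at 12.5 CPM in HFD replicate 1 and 1.53 to 4.09 CPM elsewhere. The GATA2, TAL1 and LMO2 list (8 genes) had a median of 0.45, with 7 genes above 0, and a median of 0.05 without HFD replicate 1. Its first genes were Gata3 (0.59, at no more than 1.42 CPM) and Zfpm1 (0.60), which encodes the GATA cofactor FOG1 and was at 27.5 CPM in HFD replicate 1 and 7.52 to 10.9 CPM elsewhere. Without HFD replicate 1 the log2 fold changes were 0.37 for Trib2, 0.19 for Gfi1b and -0.01 for Zfpm1. The lowest adjusted p in these 3 lists was 0.74, for Gfi1b.

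For the RUNX and CBF partners (5 genes), Cbfa2t2, a corepressor of the ETO family, was at 7.03 to 8.81 CPM in HFD and 7.21 to 24.6 CPM in CF (log2 fold change -0.91, adjusted p = 0.50 by edgeR), and Runx2 had 0.26. The MYB list (4 genes) gave 0.20 for Mybl2 (0.13 without HFD replicate 1) and -0.07 for Ep300. In the HOXA, MEIS and PBX list (11 genes, median -0.16), 6 genes were lowest in HFD replicate 1, as Hoxa9 was: Hoxa3, Hoxa4, Hoxa5, Hoxa6, Hoxa7 and Meis1. Hoxa5 had a log2 fold change of -0.56 and Meis1, the cofactor of HOXA9, -0.34. In the MYC and MAX network (11 genes, median -0.06), Mlx was at -0.61 (adjusted p = 0.41) and Zbtb17 (MIZ1) at 0.25.

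Of 12 myeloid receptor and receptor-associated genes under PU.1 and C/EBP control, Il6ra, the interleukin-6 receptor, was at 45.8 to 73.3 CPM in HFD and 71.1 to 86.1 CPM in CF (log2 fold change -0.38, adjusted p = 0.55 by edgeR), and Csf1r had -0.24. The 18 MYC targets of growth had a median of 0.04, and those with the lowest p-values were Odc1, the first enzyme of polyamine synthesis, at 0.40 (adjusted p = 0.73) and Nme1 at 0.28. Odc1 was at 50.4 CPM in HFD replicate 1, 25.5 to 29.4 CPM in the other HFD libraries and 23.3 to 25.98 CPM in CF. Without HFD replicate 1 its difference was 0.11 on the log2 scale. Among 11 MYB and HOXA9 targets, Id2 was at 19.8 to 30.8 CPM in HFD and 32.6 to 44.6 CPM in CF (-0.45, adjusted p = 0.42), and Ccnb1, the mitotic cyclin B1, had 0.29. Id2 encodes an inhibitor of E proteins needed for conventional DCs.

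**Figure D5:**
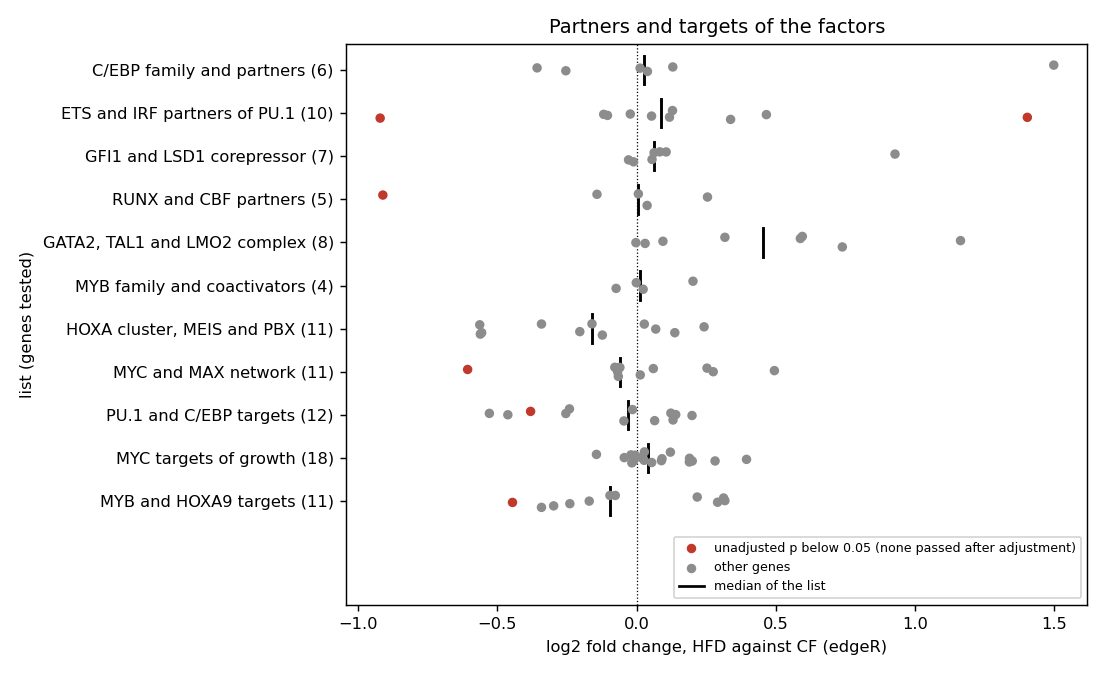
Log2 fold change, HFD against CF, of each tested gene in the 11 lists of partners and targets, with the median of each list as a black line. Red points have an unadjusted p below 0.05. Most points lie within 0.5 of 0, and the GATA2, TAL1 and LMO2 list has the highest median, 0.45.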

How the data were processed

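RNA-seq of CDPs was analysed in 8 libraries, 4 per diet. The values are raw read counts per gene as deposited by the authors, who prepared libraries with the NuGEN Ovation Solo kit, aligned read pairs with HISAT2, kept uniquely mapped pairs and counted with StringTie on GENCODE genes. The submitters' processing notes also name FastQC, cutadapt and GRCm38. The versions, the GENCODE release and strand use are not given in the sources used here. Column names were matched to samples by sample number, and 0 columns were left over. No gene in the table had a highest count under 29, so lowly expressed genes may be missing from it. Of 16119 gene identifiers 16067 were found in GENCODE vM21, which gave names, coordinates and exon lengths.

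The main test was run with edgeR 4.0.16 under R 4.3.3, using filterByExpr, TMM and a robust quasi-likelihood test with diet as the only term, Benjamini-Hochberg adjusted over 15837 genes with a threshold of 0.05. Log2 CPM used a prior count of 2. Alternatives used limma 3.58.1 and DESeq2 1.42.0, other scalings and filters, a replicate block and each library left out. Figures were drawn with matplotlib 3.10.9 in Python 3.11.15. RefSeq promoter windows came from a table for GRCm38.p6, and windows on 1 chromosome were not used here.

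Named were every factor gene, the 2 genes of lowest unadjusted p in each partner or target list, the 3 genes most like a factor that spanned more than 1 log2 unit, and the leading gene of each cell type list. Mcm4, Hoxa3, Hoxa4, Hoxa6, Hoxa7, Kit, H2-Aa, H2-Ab1, Tcf4, Siglech, Ccr9, Ly6d, Bst2 and Igkc fall outside that rule and were chosen after seeing their values. The factors and lists were chosen with earlier results of these data known.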

Additional observations from a re-analysis of the deposited data

Results flagged for a closer look

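Within a diet, 6 of 50 groups of 4 libraries that were looked at held 1 library far from the other 3, and chance alone gives about 1 in 20. Cebpe was low in CF replicate 1, at 1.92 log2 CPM against 3.02 to 3.24 in the other CF libraries. The neutrophil list was low in the same library, at 11.0 on the scale of log2(summed CPM + 1) against 12.59 to 12.73. The plasmacytoid DC list was high in CF replicate 2, at 9.03 against 8.85 to 8.88. In HFD replicate 1 the T and NK cell list stood at 3.27 against 2.59 to 2.61, and the stem cell list at 3.77 against 2.69 to 2.82, both sums of few counts. The log2 ratio of Spi1 to Cebpa was low in HFD replicate 2, at 1.49 against 1.79 to 1.84 in the other HFD libraries.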

How the results depend on the processing

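Under each alternative tool, scaling, filter or single left-out library, 0 of 10 factor genes had an adjusted p below 0.05. The exception came from a setting added after seeing the data, HFD replicate 1 and CF replicate 1 both left out, where Cebpb was at -1.70 (adjusted p = 0.023 by edgeR). Cebpa, Cebpb and Hoxa9 stayed below 0 and Myc above 0 in all 20 alternatives each. With 4 libraries per diet, the intervals of Cebpe, Gata2, Cebpb and Gfi1 span more than 2 log2 units. Diet differences of either sign within those intervals are compatible with these data.

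The number of genes lower in HFD, 67 by edgeR, was 503 with DESeq2, 260 with limma voom and sample quality weights, 0 with a linear model on log2(CPM + 1), 0 among protein-coding genes alone and 0 with the replicate block. At an unadjusted p below 0.05 those last 3 settings had 809, 252 and 675 genes lower and 648, 285 and 236 higher. Leaving out 1 library gave 0 to 166 lower (166 without HFD replicate 1, 154 without CF replicate 4) and 0 to 34 higher. The number higher, 0 by edgeR with 510 at an unadjusted p below 0.05, was 10 with library size alone, 64 with DESeq2 and 22 with sample quality weights. The added settings gave 350 lower and 38 higher without HFD replicate 1 and CF replicate 1, and 7 lower and 1 higher without HFD replicates 1 and 4. The causes of these shifts were not tested.

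For Cebpe the log2 fold change was -0.76 with limma voom, -1.39 with sample quality weights, -0.44 with the linear model, -0.94 with the replicate block, and -1.70 and -1.22 in the 2 added settings. Leaving out 1 library gave -1.48 to 0.75. For Gata2 these values were -0.16 with voom, -0.57 with weights, -0.17 with the replicate block, -0.78 and -0.25 in the added settings, and -0.59 to 0.75 with 1 library left out. Gfi1 was at -0.23 with weights, -0.43 and -0.080 in the added settings, and -0.30 to 0.62 with 1 library left out. Spi1 was at 0.16 with library size alone and -0.23 to 0.10 with 1 left out, Runx1 at -0.037 to 0.12 with 1 left out, and Myb at -0.0085 among protein-coding genes and -0.14 to 0.14 with 1 left out.

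With library size alone, which put the median of all genes at 0.25, list medians were 0.29 for the ETS and IRF partners, 0.25 for the GFI1 list, 0.20 for the MYB family, 0.14 for the MYC and MAX network, 0.24 for MYC targets and 0.10 for MYB and HOXA9 targets. With 1 library left out, medians ranged from 0.0015 to 0.13 for the ETS and IRF partners, 0.045 to 0.61 for the GATA2 list, -0.039 to 0.039 for the MYC and MAX network and -0.30 to 0.027 for MYB and HOXA9 targets. Without HFD replicate 1 the median of the PU.1 and C/EBP targets went from -0.03 to -0.46 and that of the C/EBP family and partners from 0.03 to -0.32. Of the partner and target genes, 2 (Spib, Jun) passed with DESeq2 (3.58% of all genes), with sample quality weights (1.78%) and without HFD replicate 1 (1.26%). With library size alone 1 (Spib) passed (0.682%), and 6 did without HFD replicate 1 and CF replicate 1 (2.45%). By the longest transcript the places of Cebpb, Gfi1, Runx1 and Hoxa9 were 5, 9, 3 and 8.

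Replicate numbers are shared between diets in the labels. Libraries of the same number deviated from their group means with r of -0.44, -0.08, -0.23 and -0.18. The labels do not say whether libraries of the same number were handled together, and these r values cannot decide it. The replicate block left 0 genes called.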
